A study of Saccharomyces cerevisiae with 6 samples.

Results

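Saccharomyces cerevisiae strains 62A and 62C, both adaptively evolved on galactose, were compared with the wild type reference after growth on glucose. The comparison rests on 4 of the 6 arrays of the series, chosen by their titles: 1 of 62A, 1 of 62C and 2 of the reference. The evolved strains are taken as 2 samples of one side, and the change in each is given beside the other. The remaining 2 arrays are of another evolved strain, 62B, and enter for their spread and for one comparison at the end. All strains have the CEN.PK113-7D background, a haploid laboratory yeast, and all cultures grew on minimal glucose medium in fermenters at a controlled pH, sampled in mid exponential phase. The galactose on which 62A and 62C evolved was thus absent from every culture. The labels do not say which mutations the strains carry, nor whether each is a clone or a population. They do not say whether the reference arrays came from separate cultures, so p-values measure the spread between these arrays and strains, which may be technical.

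Yeast growing on glucose ferments it and holds down the genes for respiration and for other sugars, a state called glucose repression. A second glucose signal runs through Ras, adenylate cyclase and protein kinase A. That kinase favours growth genes and keeps the transcription factors Msn2 and Msn4, which switch on stress and reserve carbohydrate genes, out of action. Glycogen and trehalose, the reserve carbohydrates, are normally stored when growth slows.

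RNA abundance was read on Affymetrix Yeast Genome 2.0 arrays as log2 values for 5449 genes, so that a difference of 1 is a 2-fold change. Gene by gene, log2 differences had an SD of 0.0956 within the reference pair and 0.137 for 62A against 62C. That SD was 0.249 and 0.278 for 62A against each reference array, and 0.332 and 0.366 for 62C. Between 96.9% and 97.3% of the genes lay above the background level of 5.07 on these 4 arrays. As a sign of RNA integrity, the control probe sets at the 3' end exceeded those at the 5' end by a mean of 1.89 in 62A, 1.73 in 62C, and 1.90 and 1.84 in the reference, on the log2 scale and averaged over 8 genes. Its part in the results was not tested. As a check of cell identity, the a-pheromone gene MFA1 read between 9.92 and 10.46 on these arrays, and MF(ALPHA)1 and MF(ALPHA)2, the alpha-pheromone genes, read between 5.09 and 5.53, near background.

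In 62A and 62C as one side, 509 genes rose (9.34% of those tested) and 809 fell (14.8%) against the reference, by limma with Benjamini-Hochberg adjustment and a threshold of 0.05. Most changes were small: 1047 of the 1318 called genes changed by less than 0.5 on the log2 scale. Large changes were mostly upward, since 71 genes rose by 2-fold or more and 8 fell that far. The median change over all genes was −0.04. Both evolved arrays lay above both reference arrays for 25.9% of genes and below both for 43.6%. The counts were far smaller when either reference array was left out. Only the difference between 62A and 62C then sets the spread, and the part of this was not tested. Without reference array 1, 22 genes rose and 8 fell in limma. Without reference array 2, 11 rose and 0 fell in limma, with 1293 genes at an unadjusted p under 0.05. Without 62A 644 rose and 941 fell, and without 62C 382 rose and 445 fell.

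The largest rise was that of GPH1 (YPR160W), the glycogen phosphorylase that releases glucose units from glycogen. Its level was 9.08 in 62A and 9.84 in 62C, against 6.03 and 5.66 in the reference. Both evolved arrays stood far above both reference arrays, a 12.2-fold difference (log2 change 3.61 ± 0.24 SE, limma adjusted p = 0.00131). HSP12, a small membrane-associated stress protein, read 11.93 in 62A and 12.29 in 62C against 8.70 and 8.32, and was 12.1-fold higher (3.60 ± 0.15, limma adjusted p = 0.000397). HXK1, the hexokinase that glucose normally represses, read 9.76 and 10.48 against 7.30 and 6.71 and was 8.64-fold higher (3.11 ± 0.27, limma adjusted p = 0.00232). For these genes the groups did not overlap, and 62C was the higher evolved array.

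Other large rises joined sugar, stress and energy genes. YGP1, a secreted glycoprotein, read 9.05 in 62A and 9.64 in 62C against 6.56 and 6.28 in the reference (log2 change 2.92 ± 0.19). DDR2, a small stress-induced protein, read 8.66 and 9.64 against 6.60 and 6.36 (2.67 ± 0.29). RTC3 read 7.99 and 8.64 against 5.76 and 5.53 (2.67 ± 0.20). In all of them the lower evolved array stood above the higher reference array. HXT7, a high-affinity glucose transporter, read 10.91 and 11.15 against 8.70 and 8.05 (2.66 ± 0.20), and its probe set can also hybridise to related genes. CYC7, the second isoform of cytochrome c, rose by 2.51 ± 0.19. SOL4, a 6-phosphogluconolactonase, rose by 2.44 ± 0.17, PGM2, the main phosphoglucomutase, by 2.41 ± 0.16, and TSL1, a trehalose synthase subunit, by 2.36 ± 0.16. EGO4 (2.35 ± 0.30), the small heat shock protein HSP26 (2.23 ± 0.31) and STF2 (2.18 ± 0.13), which acts with the mitochondrial ATP synthase, complete the 14 largest rises. Over the 14, limma adjusted p lay between 0.000397 and 0.00733. Reference array 1 was the higher of the reference arrays for 14 of 14, by a median of 0.28, while over all genes it was lower by a median of 0.04.

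**Figure D1:**
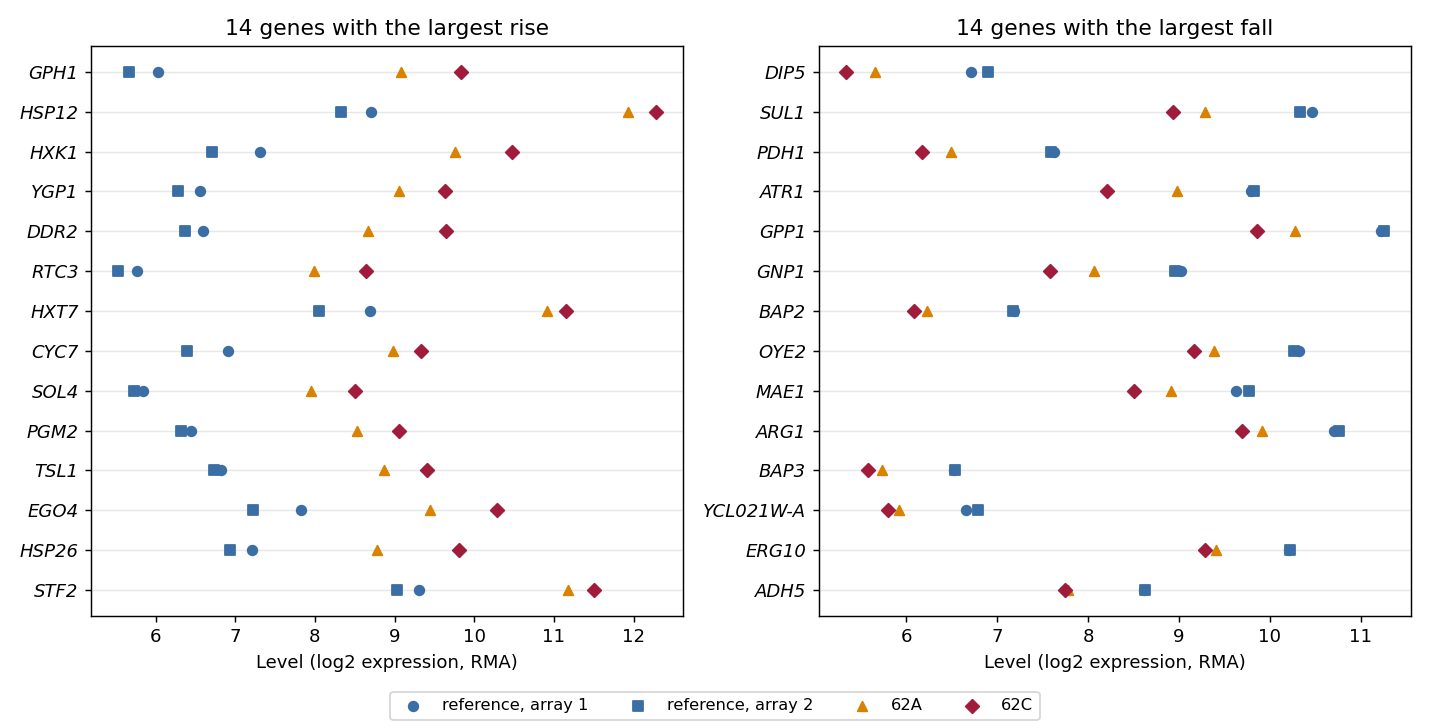
Log2 level (RMA) on each of the 4 arrays for the 14 genes with the largest rise (left) and the 14 with the largest fall (right). Circles and squares are reference arrays 1 and 2, triangles are 62A and diamonds are 62C; for every gene shown both evolved arrays lie on one side of both reference arrays.

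The largest fall was that of DIP5, a permease for glutamate and aspartate. It read 5.66 in 62A and 5.33 in 62C against 6.71 and 6.89 in the reference, and so fell to 0.403 of the reference level (log2 change −1.31 ± 0.12, limma adjusted p = 0.00245). SUL1, a sulfate permease, read 9.29 and 8.93 against 10.47 and 10.33 (−1.29 ± 0.12). PDH1, an enzyme of the methylcitrate cycle for propionate, read 6.49 and 6.17 against 7.62 and 7.59 (−1.27 ± 0.11). In each case 62C was the lower of the evolved arrays. ATR1, a multidrug efflux transporter, read 8.98 in 62A and 8.21 in 62C against 9.79 and 9.82 (−1.21 ± 0.22). GPP1, a glycerol phosphatase, read 10.28 and 9.86 against 11.22 and 11.25 (−1.16 ± 0.13). The next genes include permeases, GNP1 for glutamine (−1.16 ± 0.15), and BAP2 (−1.03 ± 0.07) and BAP3 (−0.88 ± 0.07) for branched-chain amino acids. OYE2, an NADPH oxidoreductase, fell by 1.02, the mitochondrial malic enzyme gene MAE1 by 0.99 and ARG1 of arginine synthesis by 0.93. The short reading frame YCL021W-A fell by 0.87, ERG10, the first enzyme of sterol synthesis, by 0.86 and the alcohol dehydrogenase gene ADH5 by 0.86. Over these 14, limma adjusted p lay between 0.00129 and 0.0145.

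Reserve carbohydrate genes rose, both those that build the reserves and those that break them down. Of 14 genes of glycogen metabolism 9 rose and 0 fell (list median 0.62), beside 9.34% and 14.8% of all genes. The branching enzyme gene GLC3 read 8.11 in 62A and 8.64 in 62C against 6.75 and 6.64 in the reference (1.68 ± 0.16). Both glycogen synthase genes rose, GSY1 by 1.65 ± 0.14 and GSY2 by 1.04 ± 0.14, as did the debranching enzyme gene GDB1 (1.08 ± 0.14). PIG1, a targeting subunit of a phosphatase that acts on glycogen synthase, and PCL10, a cyclin whose kinase opposes the synthase, had changes of −0.05 and −0.03 and did not pass. Of 8 trehalose genes 7 rose and 0 fell (median 0.82). The synthase subunit TPS1 read 8.95 and 9.45 against 7.99 and 8.03 (1.19 ± 0.15), the phosphatase subunit TPS2 rose by 1.23 ± 0.14, and UGP1, which makes the UDP-glucose used for both reserves, by 0.95 ± 0.13. NTH2, a trehalase, had a change of 0.13 and did not pass.

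Of 44 general stress-induced genes 37 rose and 0 fell, beside 9.34% and 14.8% of all genes. Their median was 1.02 and their highest value 3.60. Besides the genes above they include the disaggregase HSP104, which read 10.33 in 62A and 10.68 in 62C against 9.60 and 9.28 in the reference (1.07 ± 0.14). MOH1 and the hexose transporter HXT5, 2 stress-induced genes near background on all 4 arrays, had changes of 0.04 and 0.11 and did not pass. Reference array 1 was above array 2 for 31 of the 44 stress-induced genes. Their median gap was 0.07, against −0.04 over all genes, and its part in the result was not tested. Of 26 chaperones of the Hsf1 type 6 rose and 4 fell, with a median of −0.10. Their share that fell is near the 14.8% of all genes. Among those that rose was the cytosolic Hsp70 gene SSA1 (0.96 ± 0.18), beside HSP26, HSP42 and HSP104, which are also on the stress list. Antioxidant enzymes rose in 10 of 23 cases and fell in 1 (median 0.18). The mitochondrial peroxiredoxin PRX1 rose by 1.12 ± 0.16, the glutaredoxins GRX2 and GRX1 by 0.72 ± 0.11 and 0.69 ± 0.15, and the mitochondrial superoxide dismutase SOD2 by 0.64 ± 0.13.

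Of 15 hexose transporters measured, HXT7 rose and 2 fell, which is no larger a share than the 9.34% and 14.8% of all genes, and the list median was 0.0049. HXT3, a low-affinity transporter used at high glucose, read 10.60 in 62A and 10.01 in 62C against 11.13 and 11.05 in the reference (−0.79 ± 0.18, limma adjusted p = 0.0252). HXT1, another low-affinity transporter, read 6.60 and 6.04 against 6.94 and 7.28 (−0.79 ± 0.19, limma adjusted p = 0.0314). HXT4 and HXT2, 2 other glucose transporters, had changes of 0.19 and 0.11 and did not pass. For glucose phosphorylation HXK1 rose, the glucokinase gene GLK1 rose (9.63 and 10.18 against 8.07 and 7.94, 1.90 ± 0.17), and HXK2, the main hexokinase on glucose, fell (10.34 and 10.40 against 10.78 and 10.67, −0.35 ± 0.06, limma adjusted p = 0.0141).

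Below the kinases, 5 of 15 glycolysis genes fell and 1 rose (median −0.12), beside 14.8% and 9.34% of all genes. Both phosphofructokinase subunits fell, PFK2 by 0.40 and PFK1 by 0.37. The gene that rose was TDH1, a glyceraldehyde-3-phosphate dehydrogenase (1.22 ± 0.17), while the aldolase FBA1 and the enolase ENO1 had changes of −0.04 and −0.05 that did not pass. The 7 genes of the pentose phosphate pathway include 4 that fell and 0 that rose (median −0.29), with ZWF1, which commits glucose 6-phosphate to that route, at −0.40 ± 0.07. Fewer genes of both lists fell without 62C, as over all genes. The list medians were −0.14 in 62A and −0.11 in 62C for glycolysis, and −0.23 and −0.35 for the pentose phosphate pathway. Reference array 1 was the lower of the reference arrays for all 7 pentose phosphate genes, by a median of 0.11, and the part of this gap in the result was not tested.

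Several enzymes encoded by related genes had one member up and the other down or little changed. In a list of 19 minor or stress-linked paralogs of carbon metabolism 13 rose and 1, ADH5, fell (median 1.03). Over all genes the shares were 9.34% and 14.8%. The list was chosen with earlier results of these data known, so its count describes the members and tests nothing. Reference array 1 was above array 2 for 14 of the 19 (median gap 0.07), and the part of this gap was not tested. PGM2 rose by 2.41 while PGM1, the other phosphoglucomutase, fell by 0.32, and SOL4 rose by 2.44 while SOL3 fell by 0.24. CYC7 rose by 2.51 while CYC1, the main cytochrome c, had a change of 0.0030 that did not pass (limma adjusted p = 0.981). TDH1 rose by 1.22 while TDH3 had a change of −0.09 that did not pass, and the glycerol phosphatase GPP2 rose by 0.61 while GPP1 fell by 1.16. EMI2 and GLK1, a related pair, both rose (1.24 and 1.90). The pairs were put together after their values had been seen, and some of their members (TDH3, EMI2) are named here outside the rule for named genes.

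**Figure D2:**
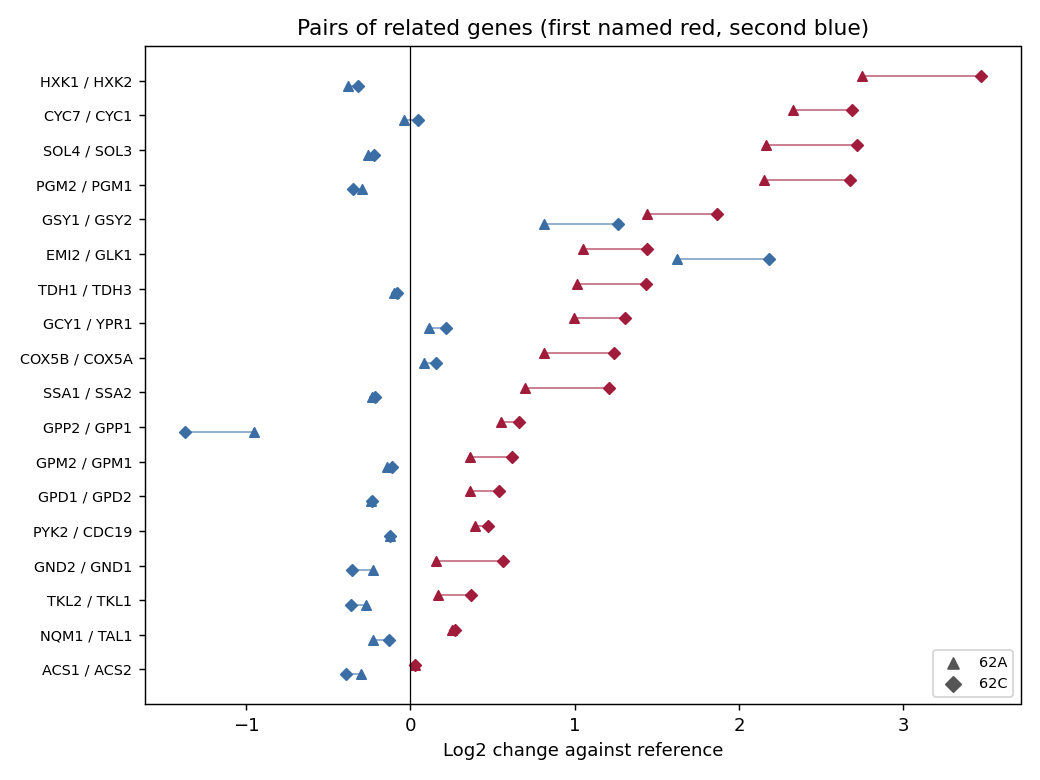
Log2 change against the reference in 62A (triangles) and 62C (diamonds) for 18 pairs of genes that encode related proteins, the first named of each pair in red and the second in blue. HXK1, CYC7, SOL4 and PGM2 lie above 2 in both strains while their partners lie below 0.1.

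Mitochondrial genes rose in several groups. Of 29 respiratory chain genes 20 rose and 0 fell (median 0.33), beside 9.34% and 14.8% of all genes. CYB2, the L-lactate dehydrogenase that feeds electrons to cytochrome c, read 9.85 in 62A and 9.99 in 62C against 8.26 and 8.01 in the reference (1.79 ± 0.10, limma adjusted p = 0.000955). COX5B, the cytochrome oxidase subunit 5 isoform best known from low oxygen, read 7.09 and 7.52 against 6.32 and 6.24 (1.03 ± 0.13). The internal NADH dehydrogenase NDI1 rose by 0.69 ± 0.12, and NDE1, an external one, had a change of −0.02 that did not pass. Of 17 ATP synthase genes 12 rose and 0 fell (median 0.43), and all 17 had both evolved arrays above both reference arrays, against 25.9% of all genes. The 3 largest were STF2, STF1 (1.16 ± 0.17) and INH1 (0.93 ± 0.10), which regulate or stabilise the enzyme, and ATP14, a subunit, rose by 0.64 ± 0.12. ATP2, the catalytic beta subunit, had a change of 0.12 that did not pass. Reference array 1 was above array 2 for 22 of the 29 respiratory chain genes (median gap 0.05) and 13 of the 17 ATP synthase genes (0.04). Over all genes the median gap was −0.04, and the part of these gaps was not tested.

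TCA cycle genes rose in 7 of 16 cases and fell in 1 (median 0.24), beside 9.34% and 14.8% of all genes. MDH1, the mitochondrial malate dehydrogenase, rose by 0.69 ± 0.13, and the succinate dehydrogenase subunits SDH4, SDH3 and SDH2 rose by 0.62, 0.59 and 0.58. Mitochondrial ribosomal proteins rose in 23 of 65 cases and fell in 0 (median 0.21), with MRP21 at 0.49 ± 0.06. Of 11 genes of the HAP complex and regulators of respiration 1 rose and 2 fell, near the shares over all genes. HAP4, the activating subunit, rose (9.40 in 62A and 9.73 in 62C against 9.12 and 8.90, 0.56 ± 0.12). Among those that fell was the hypoxic repressor gene ROX1 (−0.45 ± 0.06). HAP3 and HAP5, the DNA-binding subunits, both had changes of 0.02 that did not pass. Fewer of the respiratory chain and mitochondrial ribosomal protein genes passed without 62C, as over all genes, and more of the latter without 62A. The list medians were 0.25 in 62A and 0.44 in 62C for the respiratory chain. They were 0.14 and 0.29 for the mitochondrial ribosomal proteins.

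Acetate and glycerol genes changed in both directions. Over all genes 9.34% rose and 14.8% fell. Of 21 genes of pyruvate, ethanol and acetate metabolism 4 rose and 4 fell (median −0.03). ALD4, the main mitochondrial acetaldehyde dehydrogenase, read 9.59 in 62A and 10.05 in 62C against 8.67 and 8.63 in the reference (1.17 ± 0.14), and ACH1, a mitochondrial CoA transferase, rose by 0.79 ± 0.14. ALD5, another acetaldehyde dehydrogenase, fell by 0.53. Of 11 glycerol genes 4 rose and 2 fell (median 0.07), with GUT2, the mitochondrial glycerol 3-phosphate dehydrogenase, at 1.07 ± 0.12 and GCY1 at 1.15 ± 0.10. Gluconeogenesis and the glyoxylate cycle had 2 of 15 genes that fell, the largest being the pyruvate carboxylase PYC1 (−0.45 ± 0.07), and 0 that rose (median −0.01). Fatty acid oxidation and the carnitine shuttle had 1 of 19 genes that rose, FAA1 (0.30), and 1 that fell, FAA4 (−0.47), both acyl-CoA synthetases (median 0.03). In the methylcitrate cycle PDH1 fell, while CIT3 and ICL2 had changes of 0.06 and 0.14 and did not pass (median 0.06).

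Genes of amino acid and nucleotide synthesis fell widely. Amino acid biosynthesis had 63 genes measured, of which 49 fell and 0 rose (median −0.39), against a background of 14.8% of all genes that fell. Besides ARG1 they included HIS7 of histidine synthesis, which read 8.27 in 62A and 8.05 in 62C against 8.85 and 8.99 in the reference (−0.76 ± 0.09). ASN1 of asparagine synthesis fell by 0.66, HOM3, the aspartate kinase of the threonine and methionine route, by 0.61 and LYS2 of lysine synthesis by 0.60. TYR1 of tyrosine synthesis and ARO9, an aromatic aminotransferase, had changes of 0.03 and −0.05 and did not pass. Of 26 purine and one-carbon genes 23 fell and 0 rose (median −0.47). ADE1 read 9.63 and 9.51 against 10.24 and 10.36 (−0.73 ± 0.07), and the glycine decarboxylase subunit GCV2 fell by 0.72 ± 0.10. IMD2 and IMD3, IMP dehydrogenase genes of GMP synthesis, fell by 0.73 and 0.67, and the probe set of IMD2 can also hybridise to related genes. Of 27 genes of methionine and sulfur assimilation 15 fell and 0 rose (median −0.27), among them MET8 (−0.72 ± 0.06) and MET1 (−0.67 ± 0.09), which make the siroheme of sulfite reductase. Reference array 1 was above array 2 for 11 of the 63 amino acid genes (median gap −0.07), 3 of the 26 purine genes (−0.08) and 6 of the 27 sulfur genes (−0.06), and the part of these gaps was not tested.

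Amino acid permease genes fell in 8 of 20 cases, against 14.8% of all genes, and rose in 2 (median −0.20). Their share that rose is near the 9.34% of all genes. MUP1, a methionine permease, read 8.34 in 62A and 7.90 in 62C against 8.78 and 8.91 in the reference (−0.72 ± 0.14). PUT4, a proline permease, moved the other way, with 7.54 and 7.58 against 6.39 and 6.36 (1.18 ± 0.05, limma adjusted p = 0.000445). The evolved arrays of PUT4 differed by less than 0.05 and the reference arrays by less than 0.05. GAP1, the general amino acid permease, had a change of −0.02 that did not pass.

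Ergosterol genes fell in 21 of 26 cases and rose in 0 (median −0.39), beside 14.8% and 9.34% of all genes. After ERG10 came ERG1, the squalene epoxidase, with 8.85 in 62A and 8.70 in 62C against 9.23 and 9.43 in the reference (−0.55 ± 0.09). ERG6 fell by 0.48, the mevalonate pathway gene MVD1 by 0.48 and HMG1, an HMG-CoA reductase, by 0.47. HMG2, the second HMG-CoA reductase, had a change of 0.02 that did not pass.

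Genes for making ribosomes fell, whereas those for the ribosomal proteins themselves changed little. Of 86 ribosome biogenesis genes 46 fell and 0 rose (median −0.28), beside 14.8% and 9.34% of all genes. The reference arrays stood apart on this list, with array 1 above array 2 for 10 of 86 genes and a median gap of −0.11, against −0.04 over all genes. The part of this gap in the result was not tested. UTP20 of the small subunit processome read 8.17 in 62A and 7.89 in 62C against 8.60 and 8.60 in the reference (−0.57 ± 0.09), and RRP12 and KRE33 fell by 0.53 and 0.49. RNA polymerase I and III genes fell in 12 of 22 cases and rose in 0 (median −0.24), with the large subunits of polymerase III, RPO31 and RET1, at −0.42 and −0.41. Fewer genes of both lists passed without 62C, as over all genes. The list medians were −0.20 in 62A and −0.36 in 62C for ribosome biogenesis, and −0.19 and −0.27 for the polymerases. Of 127 cytosolic ribosomal protein genes 2 fell, RPS0B (−0.27 ± 0.06) and RPL13A (−0.21 ± 0.06), and 0 rose in limma, with a median of 0.03. Proteasome genes fell in 8 of 34 cases and rose in 0 (median −0.13), with RPT2 of the regulatory particle at −0.30. Fewer proteasome genes fell without 62A, although over all genes more fell, and the list median was −0.17 in 62A and −0.10 in 62C.

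Among the regulators of glucose signalling the changes were small. Of 20 genes of Ras, cAMP and protein kinase A signalling 4 rose and 2 fell (median 0.03), beside 9.34% and 14.8% of all genes. TPK2, a catalytic subunit of protein kinase A, read 7.49 in 62A and 7.81 in 62C against 7.12 and 7.12 in the reference (0.53 ± 0.10). CYR1, the adenylate cyclase, rose (7.85 and 7.99 against 7.59 and 7.50, 0.37 ± 0.07, limma adjusted p = 0.0155). RAS2 rose by 0.29 ± 0.08 (limma adjusted p = 0.0439), whereas RAS1 fell by 0.29 ± 0.06 (limma adjusted p = 0.0185). The kinase gene SCH9 fell by 0.30, and RIM15 and MSN2, which act on the stress response, had changes of −0.0025 and −0.03 that did not pass. Of 25 glucose sensing and repression genes 3 rose and 4 fell (median −0.03), which is near the shares of 9.34% and 14.8% over all genes. MTH1, a corepressor of hexose transporter genes, rose by 0.59 ± 0.14, and MIG2, a glucose-induced repressor, fell by 0.50 ± 0.08. MIG1, the main repressor of glucose-repressed genes, had a change of −0.01 that did not pass. Fewer of the signalling list rose and fewer of the sensing list fell without 62C, as over all genes. The list medians were 0.0044 in 62A and 0.05 in 62C for signalling, and −0.06 and −0.03 for sensing.

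The galactose genes stayed low on glucose. GAL1, the galactokinase gene, read 5.65 in 62A and 5.52 in 62C against 5.58 and 5.75 in the reference, so that the groups overlapped (change −0.08, limma adjusted p = 0.484). GAL2, GAL3, GAL7 and GAL10 had changes between −0.12 and −0.08 and did not pass. GAL80, the repressor of the pathway, fell (7.28 and 7.39 against 7.59 and 7.68, −0.30 ± 0.07, limma adjusted p = 0.0227). Over the 8 galactose genes measured, PGM2 rose and GAL80 and PGM1 fell (median −0.10), beside 9.34% and 14.8% of all genes.

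The remaining lists held few calls or mixed ones, beside 9.34% of all genes that rose and 14.8% that fell. Autophagy and vacuolar proteolysis had 9 of 29 genes that rose and 1 that fell (median 0.14), with PBI2, an inhibitor of a vacuolar protease, at 1.20 ± 0.20 and the vacuolar aminopeptidase APE1 at 0.60 ± 0.13. Of 34 cell wall genes 8 rose and 3 fell (median 0.03), and the wall proteins SED1 and CWP1 rose by 1.46 ± 0.12 and 1.17 ± 0.09. Histones rose in 3 of 9 cases and fell in 0 (median 0.24), with HTA1 at 0.39 ± 0.06. More histone genes rose without 62A and fewer without 62C, as over all genes, and the list median was 0.15 in 62A and 0.32 in 62C. Phosphate response genes had 2 of 19 that rose and 1 that fell (median −0.06), and more fell without 62A, as over all genes. A phosphate response gene that rose, PHM7, a membrane protein gene, read 7.34 in 62A and 7.27 in 62C against 5.87 and 5.84 in the reference (1.45 ± 0.06, limma adjusted p = 0.000331). Pheromone response genes had 2 of 26 that rose and 4 that fell (median −0.05), with PRM5 at −0.69 ± 0.08. Fewer of them fell without 62C, as over all genes. Of 7 a-specific genes 2 rose and 1 fell (median 0.10), and of 4 alpha-specific genes 0 passed in either direction in limma (median −0.07).

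Across the 38 lists, which overlap, 424 calls were made in all. Without reference array 1 there were 26 and without reference array 2 there were 10. Without 62A there were 504 and without 62C 319. A fit of all 6 arrays that gave each strain its own term made 587.

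**Figure D3:**
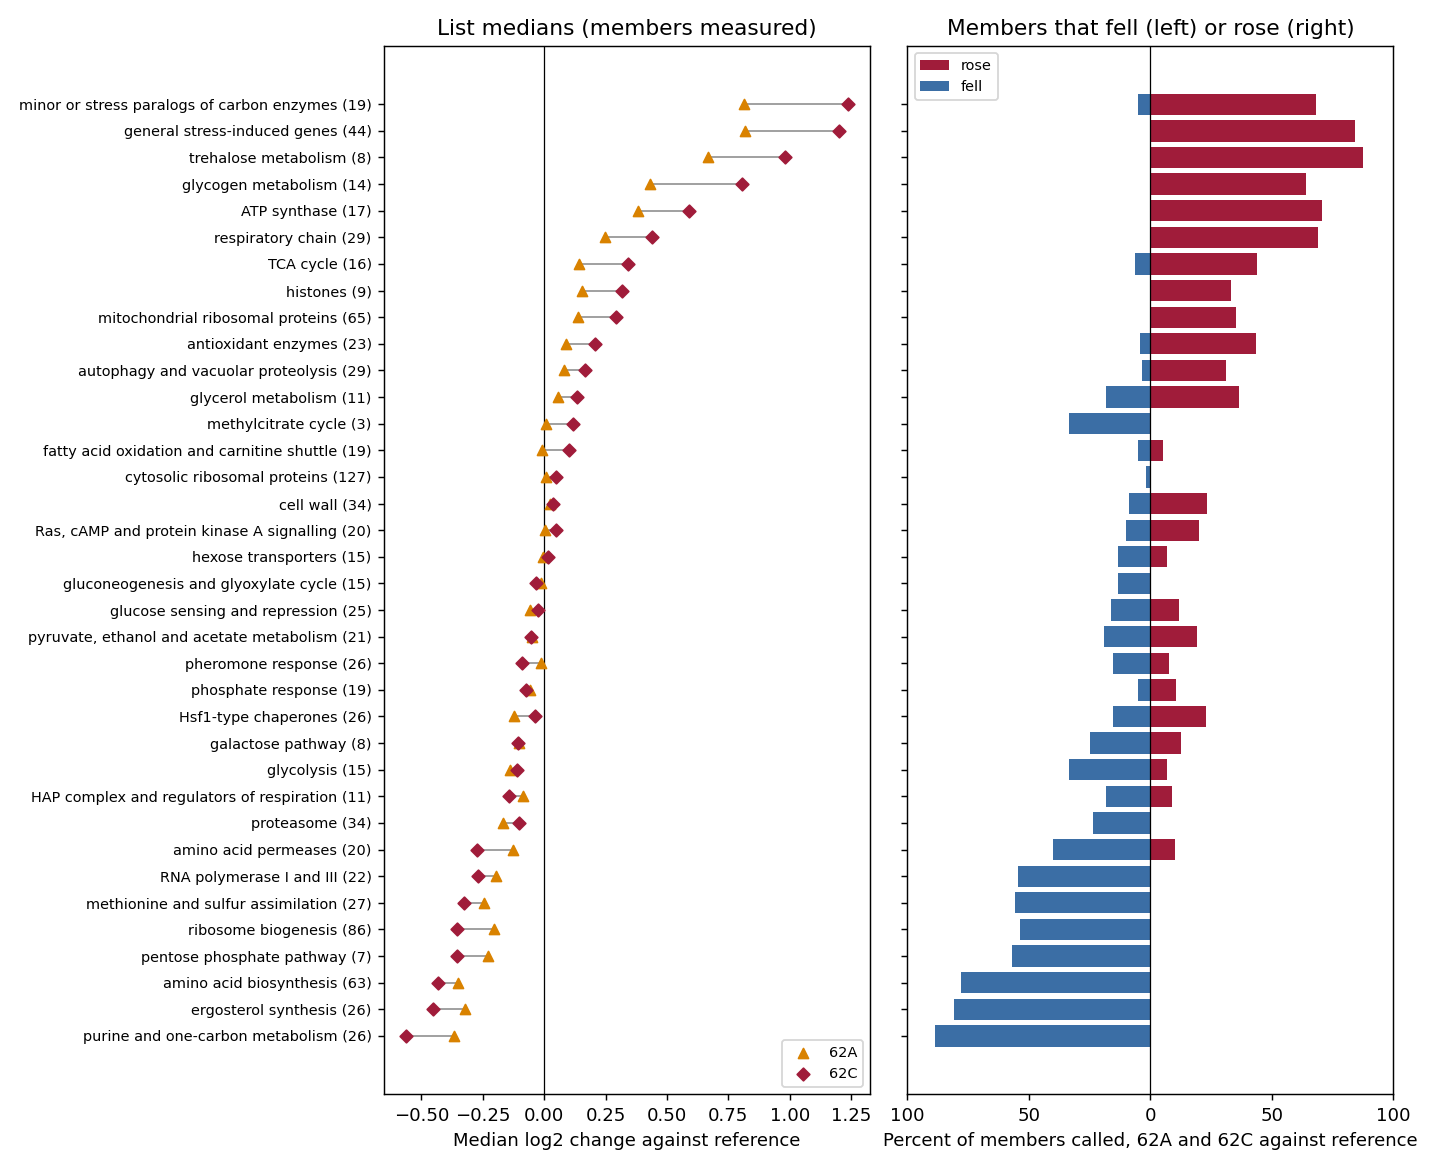
Left, median log2 change against the reference in 62A (triangles) and 62C (diamonds) for 36 gene lists, with the number of members measured in parentheses. Right, percent of each list's members that fell (blue, to the left) or rose (red, to the right) in 62A and 62C together; stress, trehalose and glycogen genes stand near the top and purine, ergosterol and amino acid genes at the bottom.

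The size of change was next compared between the strains. By the fit of all 6 arrays, 546 genes rose (10.0%) and 811 fell (14.9%) in 62A, and 803 rose (14.7%) and 1270 fell (23.3%) in 62C. Genes that rose by 2-fold or more numbered 48 in 62A and 89 in 62C, and those that fell that far numbered 3 and 13. In 62C the changes were larger than in 62A for most genes that had changed. Of the 509 genes that rose in both strains together, 425 were higher in 62C than in 62A (83.5%), with median changes of 0.35 in 62A and 0.47 in 62C. Of the 809 that fell, 641 were lower in 62C (79.2%), with medians of −0.27 and −0.34. Over all genes 48.8% were higher in 62C, and the median difference was −0.0032. Among the 71 genes that rose by 2-fold or more, 69 were higher in 62C, with medians of 1.19 in 62A and 1.59 in 62C. These counts describe 1 array of each strain.

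**Figure D4:**
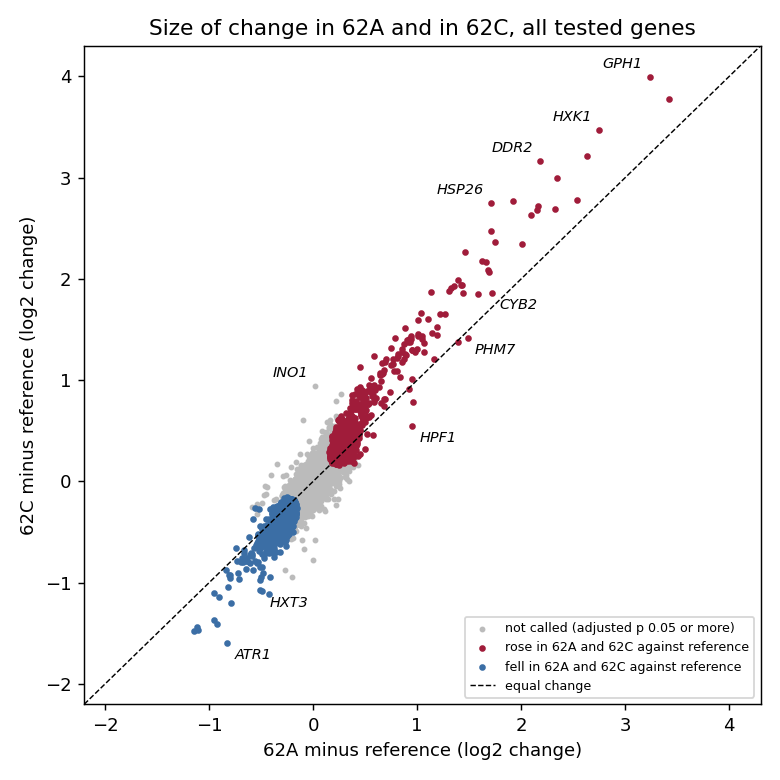
Log2 change against the reference in 62A (horizontal axis) and 62C (vertical axis) for all 5449 genes, which share the reference arrays. Red and blue points are genes that rose or fell in both strains together, grey points are the rest and the dashed line marks equal change; HSP26, DDR2 and INO1 lie above the line, HPF1 and HXT3 below it, and PHM7 close to it.

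The difference between the strains was tested in the fit of all 6 arrays. Its spread came from the 62B and reference pairs, and the lone 62A and 62C arrays were taken to vary as much as those pairs did. There 104 genes were higher in 62C (1.91% of those tested) and 28 higher in 62A (0.514%), so that 2.42% differed in either direction. Of the 104, 79 belong to the genes that rose in both strains together and 0 to those that fell. Of the 28, 17 belong to those that fell and 1 to those that rose. With quantile normalization, 159 were higher in 62C and 74 in 62A, which lowers the share higher in 62C from 78.8% to 68.2%. With 1 of the 62B arrays left out, whichever it was, 12 were higher in 62C and 7 in 62A. With 1 of the reference arrays left out, 265 were higher in 62C and 167 in 62A.

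The largest difference was that of HSP26, which read 8.78 in 62A and 9.81 in 62C (difference 1.04 ± 0.12, limma adjusted p = 0.0061). DDR2 differed by 0.98 ± 0.11, and RGI1, a gene of respiratory growth, read 8.74 in 62A and 9.55 in 62C (0.81 ± 0.14). These genes were above the reference in both strains. INO1, which makes inositol phosphate for phospholipids, was different: it read 10.34 in 62A and 11.26 in 62C against 10.46 and 10.18 in the reference. Its difference between the strains was 0.92 ± 0.12 (limma adjusted p = 0.0114), with 62A between the reference arrays and 62C above them. UIP4 differed by 0.74 ± 0.08, and FIT2, a cell wall protein linked to iron uptake, read 6.00 in 62A and 6.70 in 62C against 5.93 and 6.26 (0.70 ± 0.15).

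In the other direction ATR1 (−0.77 ± 0.08) and AQR1 (7.33 in 62A and 6.64 in 62C against 7.69 and 7.82, difference −0.69 ± 0.08), both efflux transporters, were lower in 62C. HXT3 (−0.59 ± 0.07) and YDR541C (−0.61 ± 0.08) were lower there too. MEP2, a high-affinity ammonium permease, read 9.77 in 62A and 9.17 in 62C against 9.80 and 9.70 (difference −0.60 ± 0.09, limma adjusted p = 0.0168), so that 62A lay within the reference arrays and 62C below them. YLR154C-H, a reading frame whose probe set can hybridise to related genes, had the same pattern (7.57 and 6.79 against 7.52 and 7.62). HPF1, a cell wall mannoprotein gene, rose in both strains together but stood higher in 62A than in 62C (9.25 and 8.85 against 8.32 and 8.28). FCF2, a gene of ribosomal RNA processing named here after its values were seen, was the 1 gene called in opposite directions in the single strains. It read 9.14 in 62A and 8.77 in 62C against 8.93 and 8.95, so that 62A lay above and 62C below both reference arrays.

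By list, 23 of 44 stress-induced genes, 5 of 14 glycogen genes, 4 of 8 trehalose genes, 5 of 16 TCA cycle genes, 5 of 29 respiratory chain genes and 5 of 23 antioxidant genes were higher in 62C, and 0 of each were higher in 62A. In the biosynthetic lists 1 of 63 amino acid synthesis genes, 1 of 27 methionine and sulfur genes, 1 of 86 ribosome biogenesis genes, 0 of 26 purine genes and 0 of 26 ergosterol genes were higher in 62A, and 0 of each were higher in 62C. Over all genes 1.91% were higher in 62C and 0.514% higher in 62A, and these biosynthetic lists held at most 1 such gene each. The median difference between the strains over the ribosome biogenesis genes was −0.19. Of the 86, 36 fell in 62A and 77 in 62C, against 14.9% and 23.3% of all genes. These lists were not tested against each other. GPH1, with a difference of 0.75 ± 0.17, did not pass (limma adjusted p = 0.0533), nor did HSP12 (0.36 ± 0.23), HXK1 (0.72 ± 0.23) or HXT7 (0.23 ± 0.23). ADH5 (−0.03 ± 0.08) and PUT4 (0.04 ± 0.09) differed by less than their standard errors. A difference that did not pass does not show that the strains were alike.

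Against 62B, the remaining evolved strain, the mean of 62A and 62C was higher for 751 genes (13.8%) and lower for 1104 (20.3%). With each array centred on its median these counts were 1051 and 1017, which moves the share that was higher from 40.5% to 50.8%. Without 62B array 1, 360 were higher and 448 lower, and without 62B array 2, 452 were higher and 455 lower. Without a reference array, 996 were higher and 1504 lower. GPH1 read 9.08 in 62A and 9.84 in 62C against 6.40 and 6.68 in 62B (difference 2.92, limma adjusted p = 4.07e-07), and HSP12 and DDR2 differed by 2.78 and 2.33. EGO4 differed by 2.15 and HSP26 by 1.99. MFA1 read 10.31 and 10.46 against 8.36 and 8.48 in 62B (1.97). In the other direction HXT1 read 6.60 and 6.04 against 8.87 and 8.68 in 62B (−2.45, limma adjusted p = 4.66e-07). HPF1 differed by −2.15, the alcohol acetyltransferase gene ATF2 by −2.00, SCM4 by −1.39, the sterol desaturase gene ERG3 by −1.29 and PCS60 by −1.11. By list, 36 of 44 stress-induced genes and 15 of 17 ATP synthase genes were higher in 62A and 62C than in 62B, and 22 of 26 ergosterol genes were lower. These differences do not place 62B at the reference level. YGP1 read 8.44 and 8.38 in 62B against 6.56 and 6.28 in the reference, while DDR2 read 6.75 and 6.88 against 6.60 and 6.36. In the reference HXT1 read 6.94 and 7.28, and MFA1 9.92 and 10.08. ATF2 read 7.96 and 7.90 in 62B against 6.58 and 6.70 in the reference. DIP5, OYE2, BAP3 and ADH5, among the largest falls in 62A and 62C, had differences from 62B between −0.07 and 0.16 that did not pass.

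The changes were spread over the genome. The median change by chromosome lay between −0.06 and −0.02 over the 16 chromosomes, from −0.06 to −0.03 in 62A and from −0.07 to −0.03 in 62C. The share of genes called by chromosome lay between 19.9% and 26.5%, against 24.2% overall.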

How the data were processed

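The deposited values are log2 expression values produced by the authors with RMA in affy, per the submitters' processing notes. The versions and genome build, and which arrays were normalized together, are not stated. Of 10928 probe sets, 5498 were matched to 1 S. cerevisiae gene through the platform annotation and RefSeq gene identifiers. The brightest was kept for the 47 genes with several, which left 5449 genes, and 109 of the kept probe sets can hybridise to related genes. Background was the 95th percentile of 1746 probe sets of another yeast. Precision is limited by the small number of arrays.

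Genes were tested in R 4.3.3 by limma 3.58.1, adjusted by Benjamini-Hochberg over all 5449 genes. For 62A and 62C against the reference, 4 arrays left 2 residual degrees of freedom, so the spread between 62A and 62C enters the error. Single strains, 62C minus 62A and the difference from 62B came from a model of the 6 arrays with a term for each strain, also with 2 residual degrees of freedom. Errors given as ± are standard errors. The fits were tested on simulated arrays. Lists are described by counts and medians, without a set test.

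Genes named are the 14 largest calls in each direction with groups that do not overlap, the 6 largest in each direction for 62C minus 62A and for the difference from 62B, up to 5 largest and 2 smallest changes of each list, and a set of galactose, Ras and hexokinase genes. Exceptions are marked where they occur. Members and lists were chosen with earlier results of these data known. Alternatives changed the normalization, centring, filter on dim genes, probe sets, intensity trend, fit and arrays.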

Additional observations from a re-analysis of the deposited data

Results flagged for a closer look

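For 47 named genes the change in 62C differed from that in 62A past the threshold in the limma fit of all 6 arrays, given here as 62C minus 62A on the log2 scale. Of these, 35 were higher in 62C and 12 higher in 62A. Genes of sugar phosphates and reserve carbohydrates higher in 62C were UGP1 (0.40), TPS2 (0.44), GSY2 (0.45), GDB1 (0.45), TPS1 (0.50), GLC3 (0.52), PGM2 (0.53), TSL1 (0.54), SOL4 (0.55) and GLK1 (0.56). Genes of mitochondrial enzymes and respiratory growth were KGD2 (0.34), SDH2 (0.41), COX5B (0.42), MDH1 (0.43), SOD2 (0.44), ACH1 (0.47), ALD4 (0.47), SDH4 (0.48), PRX1 (0.48) and RGI1 (0.81). The others higher in 62C were GCY1 (0.31), TPK2 (0.32), SED1 (0.39), SSA4 (0.40), GPX1 (0.46), GRX1 (0.49), YGP1 (0.59), PBI2 (0.64), RTC3 (0.65), SPI1 (0.68), FIT2 (0.70), UIP4 (0.74), INO1 (0.92), DDR2 (0.98) and HSP26 (1.04). Those higher in 62A were YLR154C-H (−0.77), ATR1 (−0.77), AQR1 (−0.69), YDR541C (−0.61), MEP2 (−0.60), HXT3 (−0.59), GNP1 (−0.49), MUP1 (−0.44), GPP1 (−0.42), MAE1 (−0.40), HPF1 (−0.40) and PDH1 (−0.32). Each value rests on 1 array of each strain, and the error comes from the 62B and reference pairs, whose spread may be technical and smaller than that between cultures. Over all genes 132 passed, and with a 62B array left out 12 passed as higher in 62C and 7 as higher in 62A, so single genes here are values to look at again and not established differences between the strains.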

How the results depend on the processing

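No paired analysis was possible because 62A and 62C have 1 array each, so that fewer than 2 replicate numbers are shared with the reference. When all 6 arrays were fitted with a term for each strain, 848 genes rose and 1434 fell in 62A and 62C. Leaving out 1 array at a time gave between 11 and 644 genes that rose and between 0 and 941 that fell. For 62A alone, where 546 rose and 811 fell, the ranges were 382 to 702 and 445 to 1433. For 62C alone, with 803 and 1270, they were 644 to 963 and 941 to 1724. For 62C minus 62A, median centring gave 169 genes higher in 62C and 52 higher in 62A, quantile normalization gave 159 and 74, and leaving out 1 array gave 12 to 265 and 7 to 167. For the comparison with 62B, leaving out 1 array gave 360 to 996 and 448 to 1504. In the fit over all 6 arrays, leaving out an array of 62B or the reference leaves 1 pair to set the spread. The same holds for any array left out of the fit of 62A and 62C against the reference. For 62C minus 62A no left-out array is in the contrast, so its log2 changes stayed the same (median −0.0032) and only the error changed. So it was for the comparison with 62B when a reference array was left out (median −0.02). For the remaining shifts the part of this was not tested, nor was any other cause. No change of a named gene that passed turned its sign under any alternative run. For many runs it could not, since the log2 change itself stays the same. These are the intensity trend, the filters on dim genes and probe sets, the fit of all 6 arrays, and any left-out array outside the comparison. Apart from arrays left out, 8 of 5317 single-gene values lost their call and 94 gained one, and with 1 array left out 400 of 3388 lost it and 57 gained one. Probe sets at background set only a bound on low genes.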
